A study of Mus musculus with 6 samples.

Results

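Amino acid stress response genes controlled by the transcription factor ATF4 were examined in mouse bone marrow-derived macrophages (BMDMs), macrophages grown from marrow precursors in culture. The set holds 33 genes listed by symbol, a choice made with earlier results of these data known, and each symbol matched 1 of the 25700 gene identifiers in the deposited counts. It covers 9 factors and regulators of the response, 8 enzymes of serine, glycine and one-carbon metabolism, 5 enzymes of asparagine, cysteine and proline synthesis, 3 genes of secreted or surface products, and 8 genes of amino acid transporters. Bone marrow cells of C57BL/6J mice aged 8 to 10 weeks were cultured with M-CSF, the macrophage growth factor, at 100 ng/ml. On day 3, heme cultures received 300 μM heme-albumin and control cultures received albumin alone, and RNA was collected on day 7. Bulk RNA-Seq gave 3 heme libraries and 3 control libraries, each from 1 mouse. The labels do not say whether a heme library and a control library with the same number came from the same mouse, so the groups were compared unpaired. The comparison asks which of these genes differed in mRNA level between heme-exposed and control macrophages.

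ATF4 is the effector of the integrated stress response. Kinases that sense amino acid shortage, unfolded proteins, viral RNA or disturbed heme supply phosphorylate the translation initiation factor eIF2α, which lowers protein synthesis in general but favors translation of the Atf4 mRNA. ATF4 then binds composite elements in its target genes together with partners of the C/EBP family and raises the genes that import amino acids, make non-essential amino acids and charge tRNAs, along with the genes of CHOP (Ddit3) and TRIB3, which shape or end the response. Macrophages that take up red blood cells handle large amounts of heme, and the kinase HRI (Eif2ak1) is held inactive by heme and responds to oxidative and mitochondrial stress. Only mRNA was measured here, so neither ATF4 protein nor eIF2α phosphorylation is covered.

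The element that ATF4 binds with C/EBP partners reads TGATGNAA, where N is any base. It was searched on both strands in RefSeq promoter windows of 300 bases (250 before and 50 after the start of the gene, assembly GRCm38.p6), which were found for 29 of the 33 genes. It occurred in the windows of 8 genes, or 27.6% of 29, against 4.51% of all 27025 genes with a window (3.97% of the 32851 windows, since a gene can have several). The matches are shown because the element is the sequence that ATF4 binds, in a set that was listed as ATF4 response genes. Each is written 5′ to 3′ on the strand of its gene, with the element in capitals, and TTGCATCA or TTACATCA is the element on the opposite strand.
Atf3, chr1:191183412-191183467: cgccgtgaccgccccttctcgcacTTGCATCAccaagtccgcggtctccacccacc
Trib3, chr2:152344028-152344057: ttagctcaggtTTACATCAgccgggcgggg
Asns, chr6:7693210-7693256: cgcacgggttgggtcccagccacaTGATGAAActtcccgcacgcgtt
Fgf21, chr7:45615598-45615653: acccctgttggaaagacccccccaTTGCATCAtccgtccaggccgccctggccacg
Nupr1, chr7:126625549-126625604: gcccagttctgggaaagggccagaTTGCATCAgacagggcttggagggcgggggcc
Slc1a4, chr11:20332699-20332728: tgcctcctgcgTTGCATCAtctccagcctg
Pycr1, chr11:120643820-120643875: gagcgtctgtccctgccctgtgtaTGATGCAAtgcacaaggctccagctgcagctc
Vldlr, chr19:27216796-27216851: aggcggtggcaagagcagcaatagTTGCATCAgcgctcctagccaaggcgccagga
In 6 of the 8 genes the element had the form TGATGCAA, which 0.895% of all windows held. The forms TGATGAAA of Asns and TGATGTAA of Trib3 were held by 1.02% and 1.10% of all windows. The windows lay on the minus strand except for that of Vldlr. Counted from the RefSeq starts, the element began 23 bases before Asns, 200 bases before Vldlr and 15 bases into the Trib3 transcript. GENCODE M21, used here for gene positions, starts these genes elsewhere (Asns at 7693254, Vldlr at 27216484 and Trib3 at 152344032). By those starts the Trib3 element lies before the gene, and the elements of Asns and Vldlr lie within theirs. A second sequence, TGACNNNGC, the core of the antioxidant response element bound by NRF2, was likewise searched on both strands. It was in the windows of 8 of the 29 genes (27.6%), against 13.99% of all genes with a window. Asns held both sequences, with no shared bases between them. In the test given below, 6 of the 8 genes with the ATF4 element rose with heme, 1 did not pass and 1 was not tested. Of the 21 genes whose windows lacked it, 15 rose and 1 fell. These counts were the same for TGACNNNGC, and 31.7% of all tested genes rose. Such matches describe the letters in these windows and do not show binding.

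Library totals ran from 27201038 to 32994595 counts, and a count of 0 in 1 library allowed a level of up to 0.119 CPM (TMM-normalized counts scaled to a common library size), counting error only. Hmox1, the heme oxygenase gene that checks the treatment, was at 21789, 20480 and 20728 CPM in the heme libraries, against 651, 555 and 547 CPM in the control libraries. The share of counts taken by the top 20 genes was 24.6% to 26.7% with heme and 17.4% to 19.3% in controls. All 8 macrophage markers were detected in both groups and summed to 36242 to 39481 CPM with heme, against 31662 to 37543 CPM in controls. Of 8 neutrophil markers, the 6 that could be tested were higher with heme (sums of 89.5 to 132 CPM, against 6.77 to 10.7 CPM in controls), and Elane was at 0 in the controls. Elane and Mpo reached a testable level only in the heme libraries. Of 4 monocyte markers, 3 were higher and 1 was lower with heme (sums of 87.2 to 95.8 CPM, against 33.1 to 36.1 CPM in controls). Sums of the dendritic, erythroid, T and NK, and stromal marker lists stayed at or below 1.46 CPM in each library. B cell markers summed to 0.477 to 0.977 CPM with heme, against 1.62 to 1.99 CPM in controls, mast cell and basophil markers to 1.08 to 1.94 CPM with heme, against 0.507 to 0.917 CPM in controls, and endothelial markers to 2.69 to 3.15 CPM with heme, against 2.78 to 3.98 CPM in controls. Cd3e, a defining T cell marker, had no count in any library. The neutrophil and monocyte markers moved with the treatment, and their part in the results below was not tested. In bulk RNA, fewer cells of a type and less RNA per cell cannot be told apart.

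Heme-treated BMDMs carried more mRNA of most of these genes than control BMDMs. The summed level of the 33 genes was 4185, 3661 and 3988 CPM in the heme libraries, against 1409, 1288 and 1377 CPM in the control libraries. Of the 33 genes, 30 passed the filter on low counts, Cth only through its heme libraries. In edgeR's quasi-likelihood test with Benjamini-Hochberg adjustment over all tested genes, 24 rose, 1 fell and 5 did not pass at an adjusted p of 0.05. Much of the transcriptome differed, and 62.5% of the 12433 tested genes were called, 31.7% as higher and 30.8% as lower. The heme and control libraries did not overlap for 25 of the 30 genes, against 68.8% of all tested genes. A called difference of at least 1 on the log2 scale was found for 20 of the 30 genes, all of them higher with heme, against 19.5% of all tested genes in either direction. The median log2 fold change (heme over control) was 1.36 for the 30 genes and 0.00406 for all tested genes. The largest adjusted p of the 24 genes that rose was 0.00382 (Pycr1). Cbs, Fgf21 and Stc2 failed the filter and are given below by their counts.

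**Figure D1:**
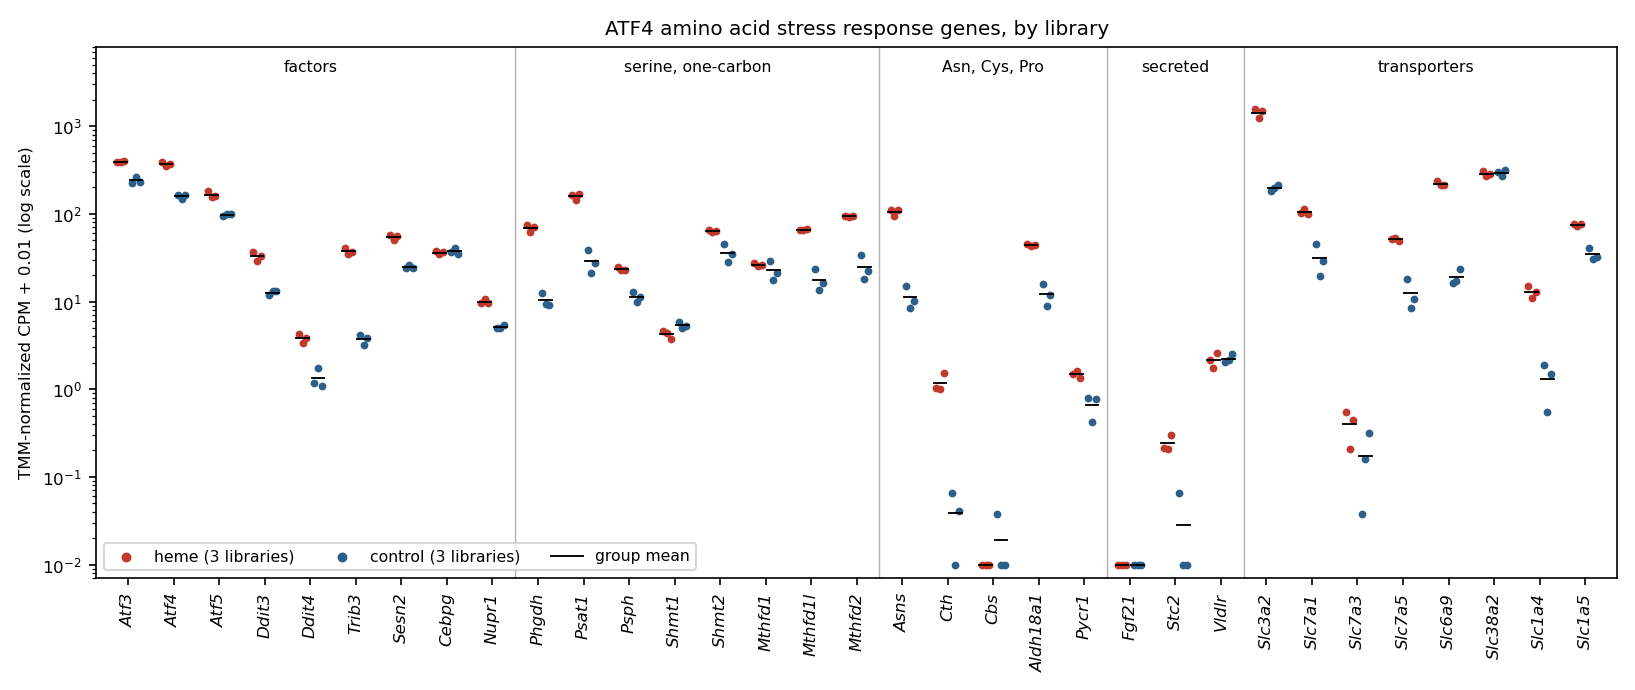
TMM-normalized CPM of the 33 genes in each library, plus 0.01 so that zeros can be drawn, on a log axis; each dot is 1 library, red for heme and blue for control, and black lines are group means. Slc3a2 reached 1251 to 1569.9 CPM in the heme libraries, against 183 to 211 CPM in the control libraries, while Fgf21 was at 0 in every library.

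Among the factors and regulators, 8 of 9 rose and 1 did not pass, with a median log2 fold change of 1.13. The called share was 88.9%, against 62.5% of all tested genes (31.7% higher and 30.8% lower). Atf4 itself (chromosome 15, 80255184 to 80257541 in GRCm38.p6) was at 387, 355 and 372 CPM in the heme libraries, against 165, 148 and 166 CPM in the control libraries. The groups did not overlap, and the log2 fold change was 1.22 (standard error 0.07, adjusted p = 5.55e-07 in edgeR's test). Ddit3, the gene of CHOP, a factor that turns the response toward cell death when stress persists, was at 37.0, 29.0 and 33.3 CPM with heme, against 11.8, 13.0 and 13.2 CPM in controls. It rose by 1.39 on the log2 scale (standard error 0.10). A stretch of 68 exon bases of Ddit3 is shared with Mars on the other strand. Trib3 encodes a pseudokinase that restrains ATF4 and CHOP activity and the kinase AKT. Its level was 40.3, 35.2 and 37.1 CPM with heme, against 4.12, 3.16 and 3.82 CPM in controls. The lowest heme library was above the highest control library by a wide margin, and the log2 fold change of 3.34 (standard error 0.11, adjusted p = 1.94e-08) was the largest among the 9 factors.

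Other factors of the response had log2 fold changes below 1. Atf3, a factor of the same family that mostly represses, was at 389.9, 389 and 402 CPM with heme, against 227, 265 and 233 CPM in controls (log2 fold change 0.70, standard error 0.07). Atf5, whose mRNA is translated under eIF2α phosphorylation in the manner of Atf4 and which acts in the mitochondrial unfolded protein response, was at 181, 154 and 158 CPM with heme, against 93.5, 101 and 100.3 CPM in controls. The difference for Atf5 was 0.74 on the log2 scale (standard error 0.08), and 82 of its exon bases are shared with Nup62 and Il4i1 on the other strand. Nupr1, a small chromatin protein induced by many stresses, was at 9.50, 10.6 and 9.61 CPM with heme, against 4.95, 4.95 and 5.38 CPM in controls (log2 fold change 0.96). Heme and control levels were separate for Atf3, Atf5 and Nupr1. Cebpg, the C/EBP partner with which ATF4 forms heterodimers, had 37.6, 34.4 and 36.4 CPM with heme, against 36.6, 40.8 and 34.8 CPM in controls. Its groups overlapped, and its log2 fold change of -0.05 (standard error 0.08) did not pass (adjusted p = 0.599). With library sizes alone as the scaling, which shifted the median of all genes to -0.22, Cebpg was called lower at -0.27.

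The 2 remaining regulators restrain mTORC1, the kinase complex that drives growth when amino acids are plentiful. Sesn2, a leucine sensor of the sestrin family, was at 57.2, 50.1 and 55.4 CPM with heme, against 24.2, 26.3 and 23.9 CPM in controls. Ddit4, the gene of REDD1, was at 4.24, 3.32 and 3.78 CPM with heme, against 1.16, 1.73 and 1.07 CPM in controls. Both genes rose with no overlap between the groups, Sesn2 by 1.13 on the log2 scale (standard error 0.08) and Ddit4 by 1.52 (standard error 0.21).

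**Figure D2:**
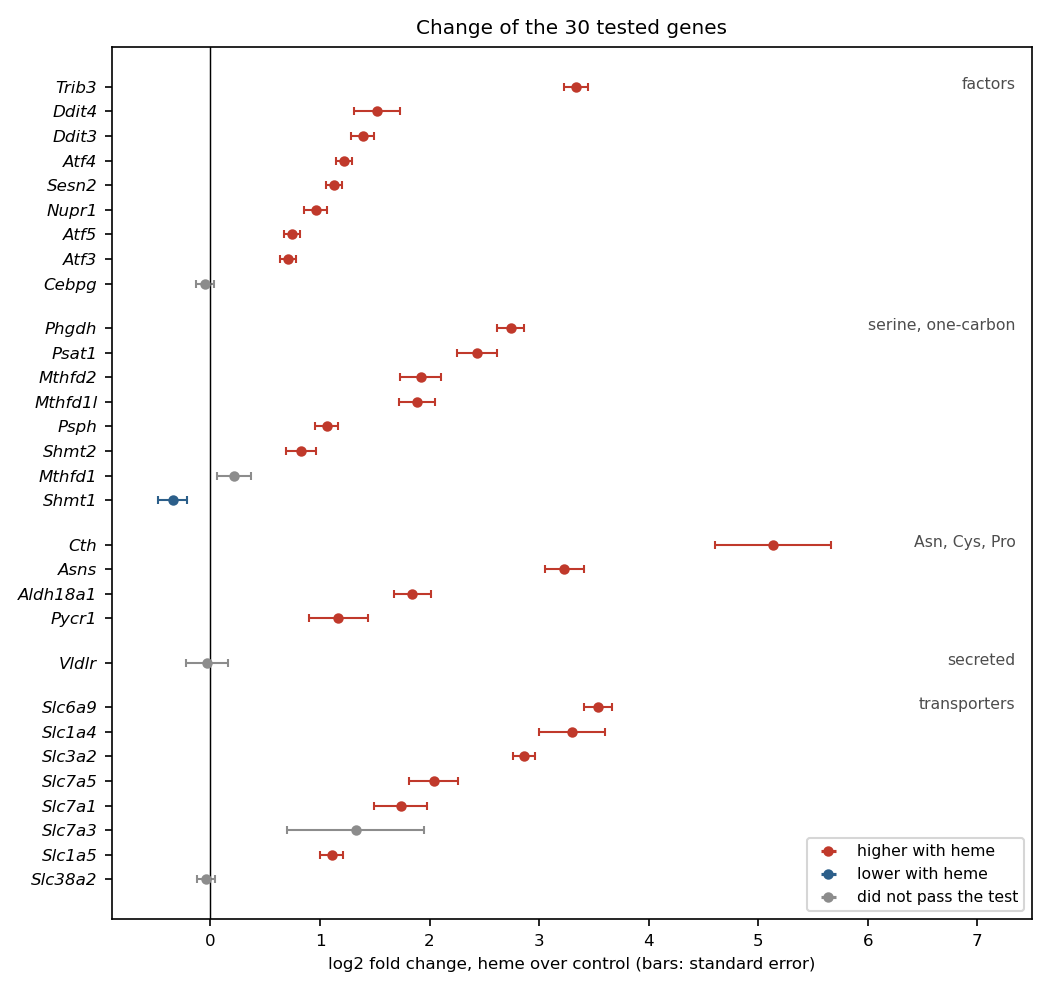
Log2 fold changes (heme over control) of the 30 tested genes with their standard errors from edgeR, grouped by role and sorted within each group; red marks genes that rose, blue the gene that fell and gray the genes that did not pass. The largest values in each group are Trib3 (3.34), Phgdh (2.74), Cth (5.13) and Slc6a9 (3.54), and Shmt1 is the lowest at -0.35.

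All 3 enzymes of serine synthesis from glycolytic 3-phosphoglycerate rose, where 31.7% of all tested genes did. Phgdh, which catalyzes the first and committing step (chromosome 3, 98313170 to 98339990), was at 73.8, 61.7 and 71.3 CPM in the heme libraries, against 12.4, 9.46 and 9.05 CPM in the control libraries. Psat1, the aminotransferase of the second step, was at 165, 143 and 167 CPM with heme, against 38.9, 21.2 and 27.8 CPM in controls. Psph, the phosphatase that releases serine, was at 25.1, 23.1 and 22.8 CPM with heme, against 12.7, 9.88 and 11.4 CPM in controls. The groups were separate for all 3 genes, and log2 fold changes were larger for the first and second steps than for the last. Log2 fold changes were 2.74 for Phgdh (standard error 0.13, adjusted p = 1.26e-07), 2.43 for Psat1 (0.18) and 1.06 for Psph (0.10).

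One-carbon units are taken from serine in parallel by mitochondrial and cytosolic enzymes. The 3 genes of mitochondrial enzymes rose, while of the 2 cytosolic ones 1 fell and 1 did not pass. Of all tested genes, 31.7% were called higher and 30.8% lower. Shmt2, the mitochondrial serine hydroxymethyltransferase, was at 66.3, 61.9 and 63.6 CPM with heme, against 44.8, 28.5 and 34.5 CPM in controls (log2 fold change 0.83, standard error 0.14). Mthfd2, the mitochondrial methylene-tetrahydrofolate dehydrogenase and cyclohydrolase, was at 94.7, 92.7 and 95.6 CPM with heme, against 34.0, 18.2 and 22.6 CPM in controls (1.92, standard error 0.19). Mthfd1l, which releases formate from the mitochondrion, was at 65.5, 65.0 and 66.6 CPM with heme, against 23.4, 13.5 and 16.3 CPM in controls (1.89, standard error 0.16). The heme libraries of these 3 genes lay close together, and the control libraries spread more widely below them. Shmt1, the cytosolic serine hydroxymethyltransferase, was at 4.58, 4.35 and 3.74 CPM with heme, against 5.86, 5.04 and 5.20 CPM in controls. It was the gene of the set that fell, by 0.35 on the log2 scale (standard error 0.13, adjusted p = 0.0477), close to the threshold. Its call was lost in 9 of the 15 alternative analyses, among them DESeq2, limma-voom and the fits without each of 5 of the 6 libraries, and 184 of its exon bases are shared with the more highly counted Smcr8 on the other strand. Mthfd1, the cytosolic enzyme that combines the 3 folate activities, was at 27.4, 25.4 and 26.2 CPM with heme, against 29.1, 17.6 and 21.4 CPM in controls. Its groups overlapped, and its log2 fold change of 0.21 (standard error 0.16) did not pass (adjusted p = 0.257). Without control replicate 1 it was 0.43 with an adjusted p = 0.00306, and with library sizes alone it was -0.0114.

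Ratios within a library put the mitochondrial genes against the cytosolic ones directly, since they do not depend on the scaling between libraries. The log2 ratio of Shmt2 to Shmt1, from counts per kilobase of exon, was 4.24 ± 0.14 in heme libraries and 3.04 ± 0.22 in control libraries (SD, n = 3 each), a difference of 1.20. For Mthfd2 to Mthfd1 it was 2.19 ± 0.04 with heme and 0.47 ± 0.09 in controls, a difference of 1.72. The groups did not overlap for either ratio, and an exact two-sided permutation test gave p = 0.1, the smallest that 3 against 3 libraries allow (adjusted p = 0.12 over 6 pairs). Such a design therefore could not reach 0.05. The ratio of Mthfd2 to Mthfd1l, consecutive enzymes of the mitochondrial route, was 0.87 ± 0.01 with heme and 0.83 ± 0.06 in controls. These groups overlapped (difference 0.04, exact permutation p = 0.4), although each of the 2 genes rose more than 3-fold.

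**Figure D3:**
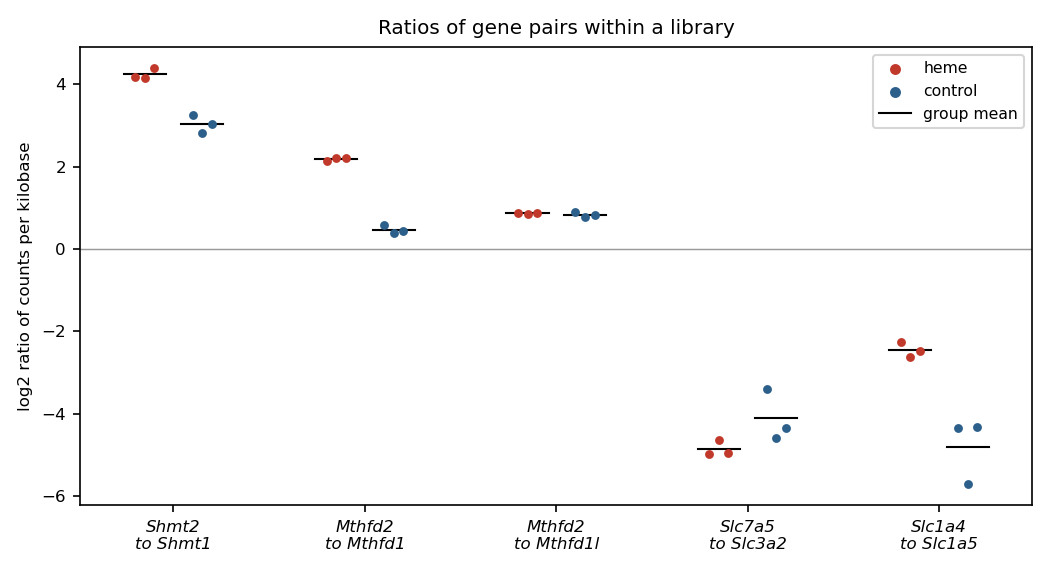
Log2 ratios of counts per kilobase between paired genes in each library, red for heme and blue for control, with black lines at the group means. Shmt2 to Shmt1 and Mthfd2 to Mthfd1 are higher in all 3 heme libraries (means of 4.24 and 2.19) than in the controls (3.04 and 0.47), while Mthfd2 to Mthfd1l overlaps between the groups.

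The split by compartment was followed over further genes, in lists drawn up after the values had been seen. Of 9 mitochondrial one-carbon genes, Shmt2, Mthfd2 and Mthfd1l included, 8 could be tested, and 5 rose, 0 fell and 3 did not pass (median log2 fold change 0.70). Of 8 cytosolic genes of folate metabolism, Shmt1 and Mthfd1 included, 0 rose, 7 fell and 1 did not pass (median -1.03). Over all tested genes, 62.5% were called, 31.7% as higher and 30.8% as lower. The 10-formyltetrahydrofolate dehydrogenases show the contrast within 1 enzyme pair. Aldh1l2, the mitochondrial form, was at 3.10, 2.49 and 2.20 CPM with heme, against 0.442, 0.448 and 0.306 CPM in controls (log2 fold change 2.69, standard error 0.25). Aldh1l1, the cytosolic form, was at 3.00, 4.86 and 3.56 CPM with heme, against 27.9, 21.6 and 25.1 CPM in controls (-2.72, standard error 0.17). Aldh1l2 shares 1056 exon bases with D10Wsu102e on the other strand, which had 6543 counts over the 6 libraries, against 256 for Aldh1l2.

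Of the 5 genes for asparagine, cysteine and proline, 4 could be tested and all 4 rose, with a median log2 fold change of 2.54. Of all tested genes, 31.7% rose. Cth, 1 of the 4, passed the filter on low counts only through its heme libraries, so it could not have been called lower. Asns makes asparagine from aspartate and glutamine and is the textbook ATF4 target (chromosome 6, 7675169 to 7693254). It was at 111, 95.3 and 110.0 CPM in the heme libraries, against 15.0, 8.47 and 10.2 CPM in the control libraries. The groups were far apart, and the log2 fold change was 3.23 (standard error 0.18, adjusted p = 4.11e-07). Aldh18a1, whose product makes the glutamate semialdehyde from which proline is formed, was at 45.1, 42.7 and 44.3 CPM with heme, against 16.0, 8.83 and 12.0 CPM in controls. Pycr1, the mitochondrial reductase that completes proline, was scarce, with 1.48, 1.62 and 1.32 CPM with heme, against 0.774, 0.418 and 0.764 CPM in controls. Both proline genes rose without overlap, by 1.84 (standard error 0.17) and by 1.17 (standard error 0.27, adjusted p = 0.00382) on the log2 scale.

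Transsulfuration, which makes cysteine from homocysteine in 2 steps, was represented at low level. Cth, cystathionine gamma-lyase of the second step, was at 1.01, 0.988 and 1.50 CPM with heme, against 0.0553, 0 and 0.0306 CPM in controls. These are 96 counts in the heme group and 3 counts in the control group, a ratio of 39.8 after scaling (95% exact interval 13.2 to 196.5, counting error only). The fitted log2 fold change was 5.13 (standard error 0.53, adjusted p = 2.42e-05), and 5.92 without control replicate 1, so its size rests on very few control counts. Cbs, cystathionine beta-synthase of the first step, had 0 counts in the heme libraries and 1 count in the control libraries and was not tested.

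None of the 3 genes of secreted or surface products was called in the main test, and 2 of them failed its filter on low counts. Fgf21, a hormone that the liver releases under ATF4 control, had 0 counts in all 6 libraries, which allows up to 0.0365 CPM over the heme group and 0.0293 CPM over the control group. Stc2, a secreted glycoprotein that ATF4 induces, was at 0.202, 0.198 and 0.293 CPM with heme, against 0.0553, 0 and 0 CPM in controls. Its 19 counts with heme against 2 in controls give a ratio of 11.8 (95% exact interval 2.85 to 104.7). Without the filter on low counts, edgeR's test called Stc2 higher (log2 fold change 3.31, standard error 0.92, adjusted p = 0.007003). Vldlr, a lipoprotein receptor, was at 2.16, 1.74 and 2.57 CPM with heme, against 2.04, 2.12 and 2.48 CPM in controls. Its groups overlapped (log2 fold change -0.03, standard error 0.19, adjusted p = 0.884). Fgf21 and Vldlr both carry the ATF4 element in the promoter windows printed above.

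Of the 8 amino acid transporter genes, 6 rose and 2 did not pass, with a median log2 fold change of 1.89 over the 8. The called share was 75%, against 62.5% of all tested genes (31.7% higher and 30.8% lower). Slc3a2 encodes CD98 heavy chain, the glycoprotein that carries several amino acid exchangers to the cell surface (chromosome 19, 8706882 to 8723369). It was at 1569.9, 1251 and 1470 CPM in the heme libraries, against 183, 195 and 211 CPM in the control libraries. Per kilobase of exon it was the most abundant of the 33 genes with heme, at 405 ± 46.3 FPKM, against 55.7 ± 3.87 FPKM in controls (SD, n = 3 each), where Atf3 and Atf4 were higher. Its log2 fold change was 2.86 (standard error 0.10, adjusted p = 3.15e-08). Slc6a9, the glycine transporter GLYT1, had the largest log2 fold change of the transporters, 3.54 (standard error 0.13, adjusted p = 3.70e-08). It was at 235, 211 and 213 CPM with heme, against 16.4, 17.2 and 23.3 CPM in controls, with no overlap. Slc6a9 shares 1429 exon bases with Ccdc24 on the other strand, and Ccdc24 had 9603 counts over the 6 libraries, against 20090 for Slc6a9.

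Carriers of neutral amino acids differed among themselves. Slc1a4, which exchanges alanine, serine and cysteine, was at 14.9, 11.0 and 12.9 CPM with heme, against 1.88, 0.537 and 1.50 CPM in controls (log2 fold change 3.30, standard error 0.30). Its relative Slc1a5, the glutamine exchanger ASCT2, was at 76.1, 72.7 and 76.2 CPM with heme, against 41.3, 30.8 and 32.4 CPM in controls (1.11, standard error 0.10). Both rose without overlap, and the scarcer gene had the larger log2 fold change. The log2 ratio of Slc1a4 to Slc1a5 per kilobase was -2.46 ± 0.19 with heme and -4.80 ± 0.79 in controls (SD, n = 3 each), a difference of 2.35 with no overlap (exact permutation p = 0.1, the smallest possible, adjusted p = 0.12). Slc38a2, the sodium-coupled carrier SNAT2 that amino acid shortage induces in many cells, was at 308, 268 and 281 CPM with heme, against 298, 269 and 315 CPM in controls. It was among the most abundant transporters in both groups, and its log2 fold change of -0.04 (standard error 0.08) did not pass (adjusted p = 0.682), although with library sizes alone it was called lower at -0.26.

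Of the carriers of cationic amino acids, 1 rose and 1 did not pass. Slc7a1, the arginine and lysine carrier CAT1, was at 101, 113 and 99.0 CPM with heme, against 45.8, 19.5 and 28.7 CPM in controls. It rose by 1.74 on the log2 scale (standard error 0.24, adjusted p = 0.000196) with no overlap. Slc7a3, the related CAT3, was near the limit of detection, with 0.539, 0.198 and 0.440 CPM with heme, against 0.0276, 0.149 and 0.306 CPM in controls. Its groups overlapped, and its log2 fold change of 1.33 (standard error 0.63) did not pass (adjusted p = 0.0927). Without control replicate 3 it was 2.15 with an adjusted p = 0.0294, and without the other libraries in turn it was as low as 0.80.

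Slc7a5, the leucine exchanger LAT1, is a light chain that works only when bound to the product of Slc3a2. It was at 52.3, 52.8 and 49.3 CPM with heme, against 18.2, 8.47 and 10.8 CPM in controls, and rose by 2.04 on the log2 scale (standard error 0.22, adjusted p = 3.59e-05). Slc3a2 had the larger fold change, so the log2 ratio of Slc7a5 to Slc3a2 per kilobase was lower with heme, at -4.86 ± 0.19, than in controls, at -4.12 ± 0.63 (SD, n = 3 each). These ratios did not overlap (difference -0.74, exact permutation p = 0.1, adjusted p = 0.12). The separation was narrow, with heme replicate 2 at -4.64 and control replicate 2 at -4.60, and control replicate 1 stood highest at -3.40. Slc3a2 has further light chains, and 5 of them were compared per kilobase of exon, a list drawn up after the values had been seen. Slc7a11, the cystine and glutamate exchanger xCT, made up 32.5%, 30.4% and 30.0% of the summed light chain FPKM in the heme libraries, against 2.03%, 2.89% and 4.13% in the control libraries. Slc7a5 made up 20.6%, 17.6% and 20.2% with heme, against 11.6%, 8.49% and 9.33% in controls. The share of Slc7a7, the exporter of cationic amino acids, was 9.95%, 10.4% and 11.4% with heme, against 28.3%, 38.4% and 34.7% in controls, and that of Slc7a8 (LAT2) was 28.6%, 34.8% and 30.5% with heme, against 51.2%, 43.3% and 43.6% in controls. Per kilobase, leading place among the 5 light chains was thus held by Slc7a8 in the controls and was shared by Slc7a8 and Slc7a11 with heme. The shared place depends on the exon lengths used, 13922 bases for Slc7a11 and 5005 bases for Slc7a8. Without division by length, Slc7a11 led with heme, at 309, 342 and 275 CPM, against 97.6, 141 and 100.4 CPM for Slc7a8. The summed light chain level was 68.3, 80.7 and 65.8 FPKM with heme, against 42.3, 26.9 and 31.2 FPKM in controls. Slc7a8 was not called (log2 fold change 0.53, adjusted p = 0.0603) and was named after its values were seen.

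Spread between replicates was not even over the set. In the control group, 16 of the 20 tested enzyme and transporter genes were highest in control replicate 1 and 16 were lowest in control replicate 2, and 15 of the 20 showed both, against 24.5% of all tested genes. The median range over the 3 control libraries was 0.63 for these 20 genes on the scale of log2(CPM + 0.5), and 0.20 over the 3 heme libraries. Over all tested genes the median range was 0.16 with heme and 0.23 in controls. Of the 9 factors and regulators, 1 had the order of control replicates 1 and 2 just described. Atf4 missed it narrowly, with 165.4, 147.7 and 166.0 CPM in control replicates 1 to 3, and so was also lowest in control replicate 2. Atf3 was lowest in control replicate 1 and highest in control replicate 2. Of 12 cell cycle genes, listed after the values had been seen, 10 were likewise highest in control replicate 1 and lowest in control replicate 2. Mki67 was highest in control replicate 3 and Birc5 was lowest there. The summed level of the 12 genes was 691, 832 and 756 CPM with heme, against 1467, 894 and 1121 CPM in controls, and 8 of the 12 fell with heme, 1 rose and 3 did not pass. The part of proliferation in the control spread was not tested. Each of the 24 genes that rose stayed called as higher in each of the fits that left out 1 library.

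**Figure D4:**
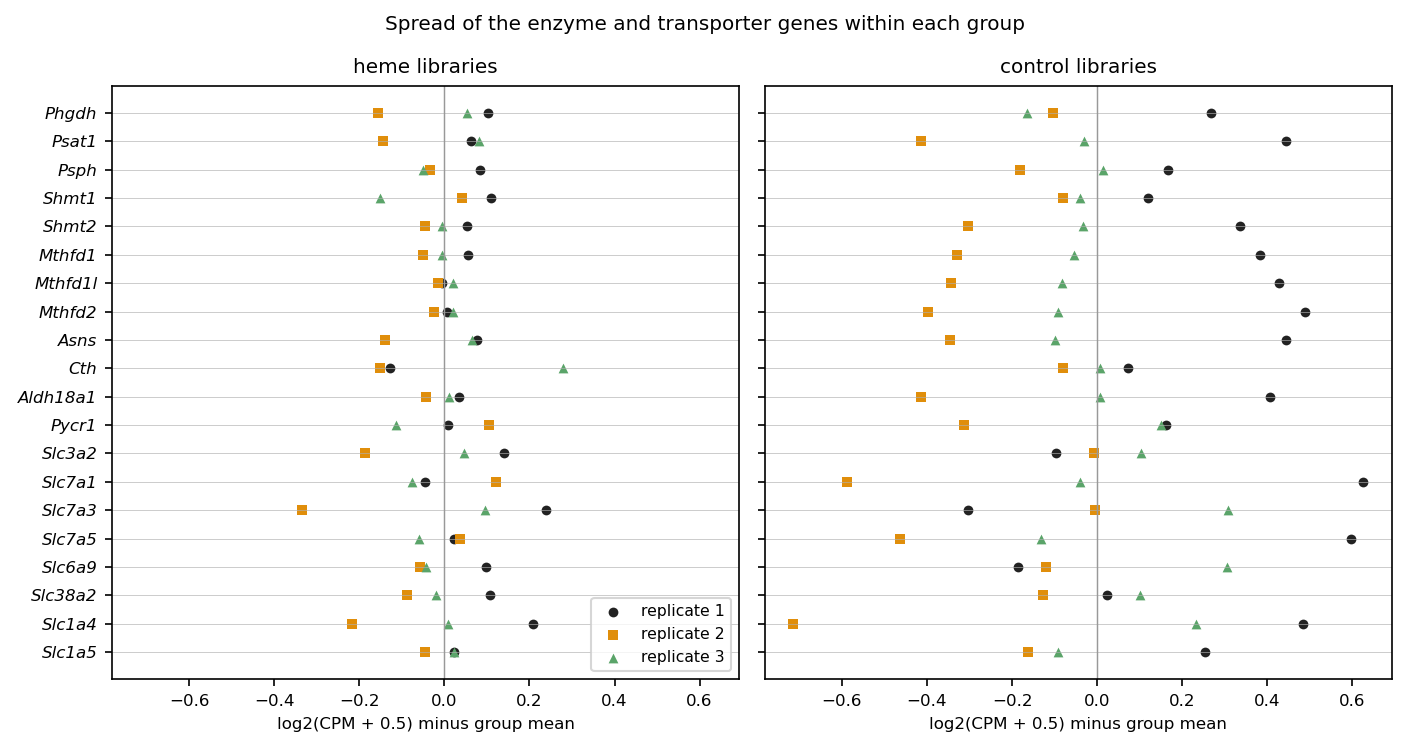
Each library's log2(CPM + 0.5) minus the mean of its group for the 20 enzyme and transporter genes, heme libraries on the left and control libraries on the right; shapes mark the replicate numbers. In the controls, replicate 1 lies highest for 16 genes and replicate 2 lowest for 16 genes, with wider spread (median range 0.63) than in the heme libraries (0.20).

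Beyond the 33 genes, 68 further genes of the pathway were examined in 6 lists, and 34 of the 64 tested rose, 17 fell and 13 did not pass (median log2 fold change 0.48, where over all genes 31.7% were called higher and 30.8% lower). Among the other targets of ATF4 and CHOP, 12 of 16 tested genes rose and 4 fell, with a median of 1.18. Slc7a11 was at 309, 342 and 275 CPM with heme, against 12.0, 10.8 and 17.9 CPM in controls (log2 fold change 4.51, standard error 0.18). The paper that reported these data names Slc7a11 as an NRF2 target gene, and the part of either factor in its rise was not tested. Chac1, which degrades glutathione in the cytosol, was at 20.4, 17.2 and 18.7 CPM with heme, against 1.44, 0.835 and 1.28 CPM in controls (3.98, standard error 0.17). Bcat1, the cytosolic branched-chain aminotransferase, had 52 counts with heme and 1 count in controls, a ratio of 64.7 (95% exact interval 11.1 to 2605). Bcat1 passed the filter on low counts only through its heme libraries, so it could not have been called lower. The log2 fold changes of Slc7a11 and Chac1 were above the 3.54 of Slc6a9. Vegfa, the endothelial growth factor that ATF4 can induce, went the other way, with 37.9, 37.5 and 32.0 CPM with heme, against 86.5, 98.3 and 88.8 CPM in controls (-1.35, standard error 0.09).

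Genes that act upstream of ATF4 had a lower median. Of 9 genes of eIF2α phosphorylation, 5 rose, 1 fell and 3 did not pass, with a median of 0.25. The kinase genes Eif2ak1 (HRI), Eif2ak3 (PERK) and Eif2ak4 (GCN2), named after their values were seen, had log2 fold changes of -0.09, -0.17 and 0.13 and did not pass (adjusted p = 0.287, 0.0941 and 0.212). Eif2ak2 (PKR), also an interferon-induced gene, fell to 27.5, 30.3 and 30.7 CPM with heme, against 68.6, 52.1 and 74.6 CPM in controls (-1.14, standard error 0.12). Ppp1r15a (GADD34), the phosphatase subunit that reverses eIF2α phosphorylation and is itself induced by the response, was at 87.7, 87.8 and 84.9 CPM with heme, against 35.1, 48.3 and 48.3 CPM in controls (0.98, standard error 0.11). Impact, an inhibitor of GCN2 activation, was at 107, 105 and 104 CPM with heme, against 48.7, 50.8 and 50.1 CPM in controls (1.08, standard error 0.06). The other 3 genes that rose, named after their values were seen, were Eif2s1, which encodes eIF2α itself (0.69), Ppp1r15b, a second phosphatase subunit (0.25), and Gcn1l1, an activator of GCN2 (0.25, adjusted p = 0.0171). The list thus held called activators and inhibitors alike, and its called share, 66.7%, was near the 62.5% of all tested genes.

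The remaining lists divided, where 31.7% of all tested genes were called higher and 30.8% lower. All 8 cytosolic aminoacyl-tRNA synthetase genes linked to ATF4 rose, from 0.73 to 1.40 on the log2 scale with a median of 1.00, and Eprs, Gars and Aars led with 1.40, 1.15 and 1.08. Of 13 tested genes in the list of other folate and glycine genes, 3 rose, 6 fell and 4 did not pass (median -0.09). Of 8 other proline and aspartate genes, 3 rose, 4 fell and 1 did not pass (median -0.01). Glul, glutamine synthetase, was at 818, 804 and 835 CPM with heme, against 233, 274 and 238 CPM in controls (log2 fold change 1.72, standard error 0.08). Prodh, which starts proline breakdown, was at 0.438, 1.07 and 0.697 CPM with heme, against 2.10, 2.09 and 1.80 CPM in controls (-1.46, standard error 0.28), so a gene of proline breakdown fell where Aldh18a1 and Pycr1 of proline synthesis rose. Got2, the mitochondrial aspartate aminotransferase, rose by 0.85. Of 10 tested genes of other amino acid transporters, 3 rose, 2 fell and 5 did not pass (median 0.59). Slc7a6, Slc36a1 and Slc38a1 rose by 1.15, 0.70 and 0.66 on the log2 scale, and Slc7a7 was lower, at -0.55.

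**Figure D5:**
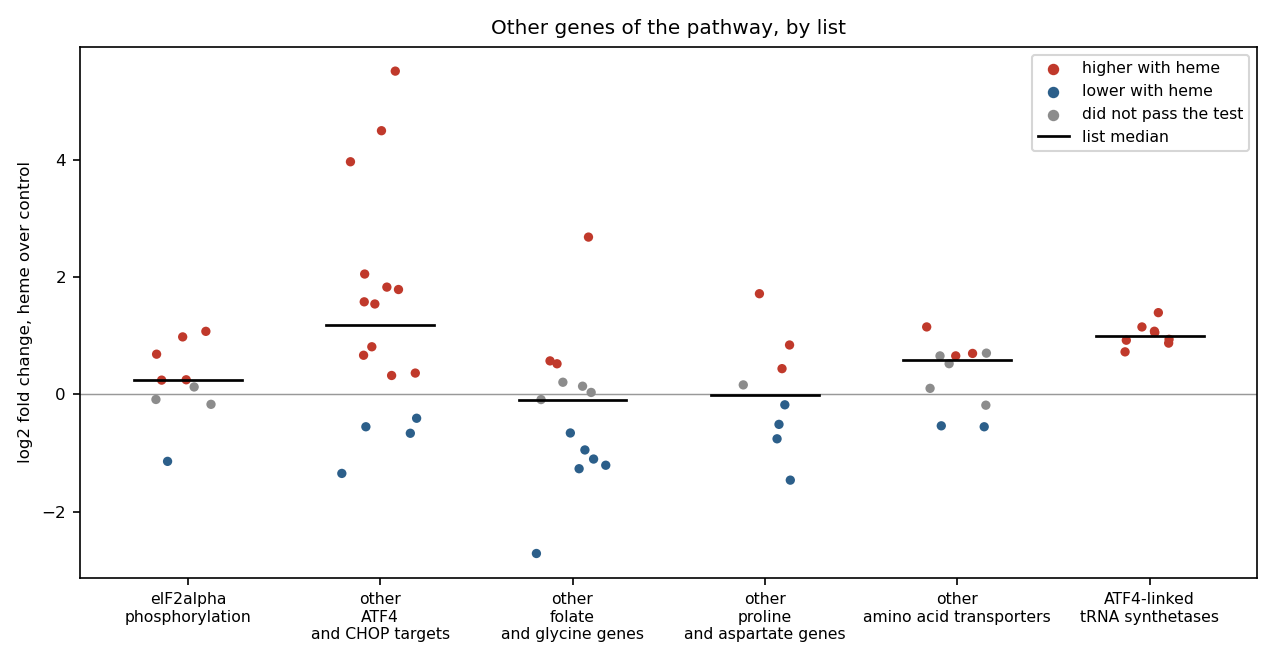
Log2 fold changes (heme over control) of the 64 tested further genes of the pathway in 6 lists, each dot 1 gene, red for higher, blue for lower and gray for not passed, with black lines at the list medians. The lists of other ATF4 and CHOP targets and of tRNA synthetases have medians of 1.18 and 1.00, and the lists of folate and glycine and of proline and aspartate genes have medians of -0.09 and -0.01.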

How the data were processed

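Total RNA of 6 BMDM cultures was sequenced from stranded TruSeq libraries (15 PCR cycles, RNA integrity numbers above 9). Counts were used as deposited by the authors, 1 table per library of unnormalized whole-number reads by Ensembl identifier. Per the labels, STAR 2.7.0, featureCounts and GRCm38.p5 were used. For featureCounts, no annotation release or strand option is given in the sources used here. Reads in exons shared with genes on the other strand were therefore not corrected for. Besides the overlaps named with the results, exons are shared by Psph and Cct6a, Shmt2 and Ndufa4l2, Slc6a9 and B4galt2, Aars and Exosc6 (same strand), Glul and Teddm2, and Eif2ak1 and Aimp2. Symbols, positions and exon lengths came from GENCODE M21 (GRCm38.p6), and 25664 of 25700 identifiers received a symbol.

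In R 4.3.3, edgeR 4.0.16 kept 12433 genes (filterByExpr, minimum count 10), scaled libraries by TMM and compared heme with control by glmQLFit and glmQLFTest without covariates, with calls at a Benjamini-Hochberg adjusted p under 0.05. CPM are TMM-normalized, and FPKM are CPM per kilobase of exon. Ratios of gene pairs used counts plus 0.5 per kilobase, compared by exact permutation, and the pair Cth to Cbs is not given because Cbs had 1 count. Counts of 0 were given a limit of 3 counts. Intervals of count ratios are exact binomial at 95%, and PCR copies are not independent molecules. P-values measure the spread between cultures of single mice.

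The members and lists were chosen with earlier results of these data known. Named genes were the 33 members, Hmox1, defining markers, and in each further list up to 3 called genes with the largest change and 1 of opposite direction. Eif2ak1, Eif2ak3, Eif2ak4, Eif2s1, Ppp1r15b, Gcn1l1 and Slc7a8 and the lists of cell cycle, compartment and light chain genes were chosen after their values were seen. Alternatives were other scalings (RLE, upper quartile, library sizes alone, library sizes without the 20 most abundant genes), DESeq2 1.42.0, limma-voom (limma 3.58.1), other filters, a block for the replicate number, fits without each library in turn, and a call at an absolute log2 fold change above 0.5 with an unadjusted p under 0.001. The procedure was tested on simulated counts. Results of a few genes are left out of the text.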

Additional observations from a re-analysis of the deposited data

How the results depend on the processing

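Each of the 24 genes that rose kept its call in each of the 15 alternative fits that tested it, and Pycr1 (unadjusted p = 0.00163) lost it under the rule of an absolute log2 fold change above 0.5 with p under 0.001. The count of members that rose was 23 to 25 over the alternatives (25 with no filter on low counts, which added Stc2, without control replicate 1, which added Mthfd1, and without control replicate 3, which added Slc7a3; 23 with a filter of 1 CPM in 3 libraries, which left Cth untested), and that of members that fell was 1 in the main analysis, 3 with library sizes alone, and 0 with DESeq2, limma-voom, no filter on low counts, the replicate block, or the same rule. Leaving out 1 library at a time gave 0 to 1 members that fell, since Shmt1 lost its call (adjusted p up to 0.177 over the alternatives). Library sizes alone moved the median log2 fold change of all genes to -0.22. All genes then split into 2580 higher and 5814 lower, against 3938 and 3831 with TMM, Mthfd1 turned to -0.0114, and Cebpg (-0.27) and Slc38a2 (-0.26) were called lower. The 0.5 and 0.001 rule called 3993 of all genes, 2142 higher and 1851 lower. Values near 0 changed sign when 1 library was left out, and ranged from -0.10 to 0.00812 for Cebpg, from -0.18 to 0.0938 for Vldlr and from -0.11 to 0.00931 for Slc38a2. The libraries were not paired because the labels do not say whether the same number marks the same mouse. Residuals of heme and control libraries with the same number were not positively correlated (-0.146, -0.191 and -0.109). With 3 libraries per group, these correlations cannot decide whether mice were shared. With the replicate number as a block, 7164 genes were called, against 7769 without it, and the members split into 24 higher and 0 lower. At 3 counts per library, levels under about 0.119 CPM could not be told from absence, which covers Cbs, Fgf21 and the control values of Cth and Stc2.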
